A study of Mus musculus with 6 samples.

Results

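The 10 genes described here encode receptors, enzymes and regulators by which tissue macrophages take up dying cells and recycle iron, and they were Spic, Vcam1, Hmox1, Slc40a1, Cd163, Axl, Cd5l, Mrc1, Marco and Siglec1. They were chosen by name from 19937 genes that have at least 1 array row with a single platform symbol. Each of the 10 has 1 such row, and all 10 lay above the filter on low values, which left 15037 genes to test. The arrays carry RNA of T cells sorted from mice, so the genes were followed to describe which macrophage transcripts the sorts hold.

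T cells of wild-type C57BL/6 donors had been transferred into CD3ε-deficient recipients, which lack T cells of their own. One group of recipients still expressed MHC class II (MHC II-competent), and the other lacked both CD3ε and MHC class II (MHC II-deficient). Both groups therefore share the CD3ε deletion and the wild-type T cell transfer, and mice are given as 6 to 8 weeks of age. After 5 days CD4+ TCRβ+ CD25+ cells were enriched with magnetic beads and sorted by flow cytometry from peripheral lymph nodes and spleen, and each group has 3 arrays labelled as biological replicates, here called competent 1 to 3 and deficient 1 to 3. The labels do not say whether a replicate is 1 recipient or a pool, so p-values measure only the spread between these preparations.

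Red pulp macrophages of the spleen engulf old red blood cells, break down their heme and return the iron to the blood. Macrophages of the marginal zone, at the border of red and white pulp, instead carry scavenger receptors and lectins that take particles from the blood, and those of lymph node sinuses do the same for lymph. Clearance of dying cells by receptors of the Axl and Mertk family is shared by many of these types.

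The sorted cells had the transcripts of regulatory T cells (Tregs) in both groups. Foxp3, the transcription factor that defines Tregs, stood at a log2 value of 9.82 ± 0.05 in the competent and 9.77 ± 0.09 (SD, n = 3) in the deficient group, and Cd3e, a subunit of the T cell receptor complex, at 11.19 ± 0.07 and 11.12 ± 0.03 (SD, n = 3). Of 11 tested Treg and CD4 T cell genes, 0 passed the threshold (4 had an unadjusted p under 0.05 by limma), and all 11 lay below 0 in the difference of deficient minus competent, with a median of -0.14. For 6 of the 11 every deficient array lay below every competent one, against 12.9% of all tested genes. Array medians over all rows lay between 6.11 and 6.25 on the log2 scale.

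Macrophage clearance and iron genes lay higher in the mean of the MHC II-deficient group for all 10 members, but 0 of 10 passed limma's test (Benjamini-Hochberg adjusted p under 0.05 over all 15037 genes). In the same test 3.37% of all genes were called, 1.34% higher and 2.03% lower. At an unadjusted p under 0.05 were 7 of the 10, against 18.9% of all tested genes. The median log2 difference of the members was 0.99, beside 0.02 over all tested genes. In bulk RNA, more macrophages in a sort and more RNA of these genes per macrophage cannot be told apart. The part of other cells in these values, the sorted T cells among them, was not tested.

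The array called deficient 1 had the highest value of all 6 for every one of the 10 genes, and competent 3 the lowest for 9 of them. In 9 of the 10 genes the 3 deficient arrays spread over a wider range than the difference between the groups, with Siglec1 as the exception. The groups did not overlap for 3 genes, Spic, Cd5l and Siglec1, all higher in the deficient group, while 11.4% of all tested genes had groups apart in that direction. Without deficient 1 the members' median difference was 0.63. Without both deficient 1 and competent 3 it was 0.38, and 0 members passed.

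**Figure D1:**
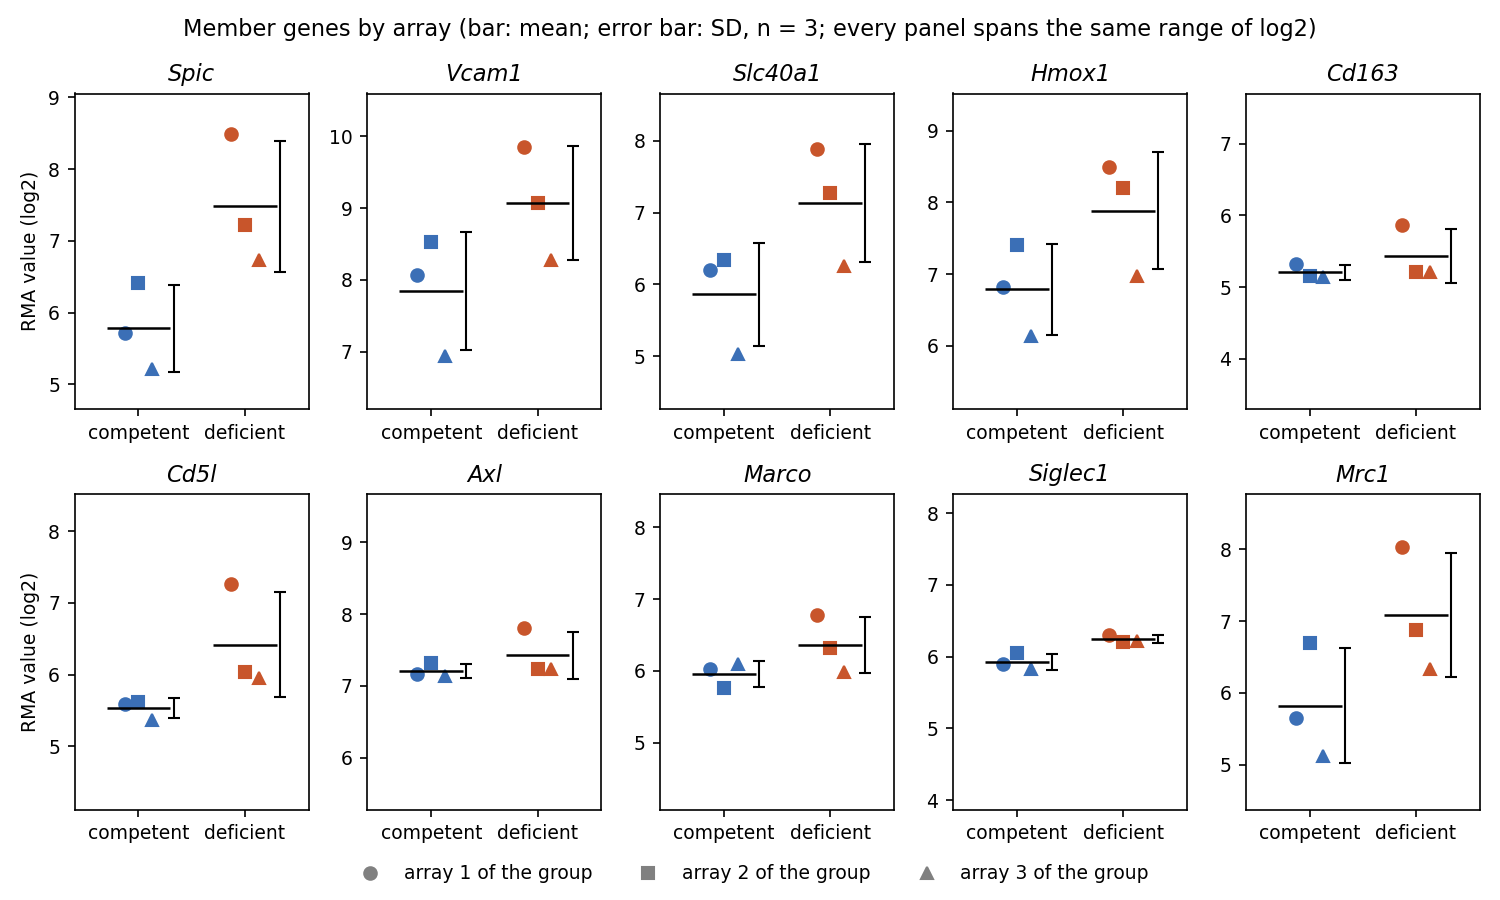
RMA values (log2, vertical axes) of the 10 genes in the 3 MHC II-competent (blue) and 3 MHC II-deficient (orange) arrays, with the symbol giving the array's number in its group, the bar the mean and the error bar the SD over 3 arrays. Deficient 1 (orange circle) is the highest point in all 10 panels, and the groups are apart for Spic, Cd5l and Siglec1.

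Promoters of the members were read, with attention to 6 genes that share a large array-to-array range, described below. Any link between promoter letters and that range was not tested. The promoter table of RefSeq (GRCm38.p6) listed 6 of the 10 members, Spic, Cd163, Cd5l, Axl, Marco and Mrc1. Shown are the 250 bases before the gene start of the 3 listed genes of that group, 5′ to 3′ on the gene's strand, at chr10:88683024-88683273 (minus strand) for Spic, chr3:87357631-87357880 (plus) for Cd5l and chr2:14229164-14229413 (plus) for Mrc1. Capitals mark the PU-box core GAGGAA on either strand, a sequence bound by PU.1, the ETS factor of macrophages to which the Spic protein is closely related.
Spic: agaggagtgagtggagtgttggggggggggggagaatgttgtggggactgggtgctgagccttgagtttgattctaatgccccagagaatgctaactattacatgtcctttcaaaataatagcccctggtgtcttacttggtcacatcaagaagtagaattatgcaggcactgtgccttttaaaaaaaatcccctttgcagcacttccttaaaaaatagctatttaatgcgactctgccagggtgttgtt
Cd5l: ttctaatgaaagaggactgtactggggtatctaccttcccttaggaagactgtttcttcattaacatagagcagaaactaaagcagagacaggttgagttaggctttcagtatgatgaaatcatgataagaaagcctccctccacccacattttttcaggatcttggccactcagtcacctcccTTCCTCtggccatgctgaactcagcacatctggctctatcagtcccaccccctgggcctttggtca
Mrc1: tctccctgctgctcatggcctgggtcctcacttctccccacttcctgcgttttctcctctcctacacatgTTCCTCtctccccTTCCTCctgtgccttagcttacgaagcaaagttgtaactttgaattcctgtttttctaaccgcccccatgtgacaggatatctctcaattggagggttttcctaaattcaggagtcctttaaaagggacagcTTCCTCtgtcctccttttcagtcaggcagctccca
The PU-box core had 3 matches in the window of Mrc1, 1 in that of Cd5l and 0 in that of Spic, and among the narrow-range genes 1 each in the windows of Axl and Marco and 0 in that of Cd163. It occurs in 23.3% of the 32851 promoter windows of the same length in the table. The core TGANTCA of AP-1 and Maf factors (6.75% of windows) had 0 matches in these 6 windows. Maf sites with another spacing were not searched, so this count does not cover them. Both motifs were searched on both strands, and with 0 matches of the second none overlapped. Matches describe letters only.

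Spic and Vcam1 mark red pulp macrophages. Spic encodes an ETS transcription factor that these macrophages need for their development and that heme induces. Its log2 values were 5.71, 6.42 and 5.21 in competent 1 to 3 and 8.49, 7.22 and 6.73 in deficient 1 to 3. Every deficient array lay above every competent one, and deficient 1 stood 1.28 above the next array. The difference of 1.70 (SE 0.42, 3.25-fold, 95% interval 0.75 to 2.65) was the largest of the 10 and did not pass limma's test (adjusted p = 0.064). It was 0.91 without deficient 1 and competent 3.

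Vcam1 encodes an adhesion molecule of red pulp macrophages that activated endothelium and stroma also carry. It stood at 8.06, 8.53 and 6.94 in the competent and 9.86, 9.07 and 8.27 in the deficient arrays on the log2 scale. The groups overlapped at 1 point, where competent 2 lay above deficient 3. The difference was 1.22 (SE 0.44, 2.34-fold, limma adjusted p = 0.17). Of 10 tested genes of endothelium and stroma 0 passed (1 at an unadjusted p under 0.05), with a median difference of 0.12 and list means from 6.30 to 6.42 in the competent and 6.45 to 6.51 in the deficient arrays. The part of such cells in the Vcam1 value was not tested.

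Hmox1 encodes heme oxygenase 1, which opens the heme ring and frees its iron. Its log2 values were 6.82, 7.41 and 6.14 in the competent and 8.50, 8.19 and 6.97 in the deficient arrays. Deficient 1 and 2 lay above all competent arrays, and deficient 3 lay below competent 2. The difference was 1.10 (SE 0.40, 2.14-fold, limma adjusted p = 0.18).

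Slc40a1 encodes ferroportin, the exporter that passes iron out of the cell. It stood at 6.20, 6.34 and 5.04 in the competent and 7.89, 7.27 and 6.26 in the deficient arrays. Again competent 2 above deficient 3 was the 1 overlapping pair. The difference was 1.28 (SE 0.42, 2.43-fold, limma adjusted p = 0.14). Hmox1 and Slc40a1 both passed, with Spic, when deficient 3 was left out (limma adjusted p = 0.038, 0.047 and 0.036). Deficient 3 was the lowest deficient array for each of these genes, and 2.12% of all genes were called without it. None of them passed with all 6 arrays.

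Cd163 encodes the receptor by which macrophages take up hemoglobin bound to haptoglobin. Its log2 values were 5.33, 5.15 and 5.13 in the competent and 5.86, 5.22 and 5.21 in the deficient arrays. Deficient 1 lay apart, and deficient 2 and 3 lay below competent 1. The difference of 0.22 (SE 0.17, 95% interval -0.16 to 0.61, limma adjusted p = 0.53) turned to -0.03 without deficient 1 and competent 3. The row's mean of 5.32 was near the filter value of 5.205, so its range is close to the low end of what was tested.

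Among 19 other tested genes of heme and iron handling 0 passed limma's test, 3 had an unadjusted p under 0.05, and 8 lay above and 11 below 0, with a median of -0.04. The smallest p values belonged to Tfrc, the transferrin receptor gene (-0.43, SE 0.13, adjusted p = 0.12), and Hebp1, which encodes a heme-binding protein (0.59, SE 0.22, adjusted p = 0.18). The ferritin chain genes Fth1 (0.04, SE 0.09) and Ftl1 (-0.28, SE 0.13), the heme transporter gene Slc48a1 (0.07, SE 0.09) and the biliverdin reductase gene Blvrb (0.18, SE 0.16) had adjusted p = 0.86, 0.28, 0.74 and 0.60. Hmox2, the constitutive heme oxygenase gene, named after its value was seen, was lower in every deficient than in every competent array (-0.22, SE 0.09, limma adjusted p = 0.23). Tfrc was as well, so 2 of the 19 had groups apart and lower, against 12.9% of all tested genes. Of 11 genes of the antioxidant response controlled by Nfe2l2 and its heme-sensing counterpart Bach1, 0 passed, 3 had an unadjusted p under 0.05, and the median was -0.15. Gclm, a subunit of glutathione synthesis (-0.32, SE 0.09), and Txnrd1, thioredoxin reductase (-0.31, SE 0.10), had the smallest p (adjusted p = 0.092 and 0.13), and Bach1 itself stood at -0.01 (SE 0.10). Many of these genes are active in most cell types, and the values are of the whole sort.

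Receptors and secreted proteins of clearance fell into a wide and a narrow pattern. Cd5l encodes a secreted scavenger protein of tissue macrophages. Its log2 values were 5.59, 5.62 and 5.37 in the competent and 7.27, 6.04 and 5.96 in the deficient arrays. The groups did not overlap, and deficient 1 stood 1.23 above the next array, more than the difference of 0.89 itself (SE 0.29, 1.85-fold, limma adjusted p = 0.14). Without deficient 1 the difference was 0.47.

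Mrc1 encodes the mannose receptor CD206, found on many tissue macrophages and on some sinus endothelium. It stood at 5.65, 6.69 and 5.12 in the competent and 8.03, 6.88 and 6.34 in the deficient arrays. Competent 2 lay above deficient 3 and just below deficient 2. The difference was 1.26 (SE 0.45, 2.40-fold, limma adjusted p = 0.17).

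Axl encodes a receptor tyrosine kinase that binds dying cells through the bridging protein Gas6. Its log2 values were 7.17, 7.33 and 7.14 in the competent and 7.81, 7.24 and 7.23 in the deficient arrays. Apart from deficient 1, the arrays of both groups lay within the same narrow range. The difference was 0.21 (SE 0.16, 95% interval -0.14 to 0.56, limma adjusted p = 0.51), 0.02 without deficient 1 and -0.01 without competent 3 as well.

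Of 19 other tested genes of apoptotic cell clearance 1 rose and 0 fell, with 12 above 0 and a median of 0.11. The gene that rose was Anxa1, which encodes annexin A1 (1.32, SE 0.23, adjusted p = 0.019), and it did not pass without competent 1, deficient 1 or deficient 2. Mertk, the receptor of the Axl family most used by macrophages, stood at 0.77 (SE 0.32, adjusted p = 0.23), and Timd4, a phosphatidylserine receptor gene, at 0.52 (SE 0.14, adjusted p = 0.082). Among 9 other scavenger receptor genes 0 passed (2 had an unadjusted p under 0.05), and the median was 0.07. Of the 9, 5 lay above 0 and 4 below. Those below include the T cell surface genes Cd5 (-0.26, SE 0.13) and Cd6 (-0.18, SE 0.12), named after their values were seen. Their competent means were 10.32 and 9.41. The smallest p values were those of Cd68 (0.90, SE 0.23, adjusted p = 0.073) and Cd209b (0.41, SE 0.13, adjusted p = 0.13).

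Marco and Siglec1 mark macrophages of the splenic marginal zone and of lymph node sinuses. Marco, a scavenger receptor gene of the outer marginal zone, stood at 6.02, 5.76 and 6.10 in the competent and 6.77, 6.32 and 5.99 in the deficient arrays. Deficient 3 lay below competent 1 and competent 3. The log2 difference was 0.40 (SE 0.18, 95% interval -0.01 to 0.82, limma adjusted p = 0.28). This was the 1 member for which competent 3 was not the lowest array.

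Siglec1 encodes CD169, a lectin of metallophilic macrophages that interferons also induce. Its log2 values were 5.90, 6.05 and 5.83 in the competent and 6.31, 6.21 and 6.22 in the deficient arrays. The 3 deficient arrays lay within 0.10 of each other and above all competent ones. The difference was 0.32 (SE 0.10, 1.25-fold, 95% interval 0.10 to 0.54, limma adjusted p = 0.12). The mean of 10 interferon-stimulated genes ran from 8.12 to 8.29 in the competent and from 9.48 to 9.85 in the deficient arrays, and all 10 rose (median 1.42). Their part in the Siglec1 value was not tested.

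**Figure D2:**
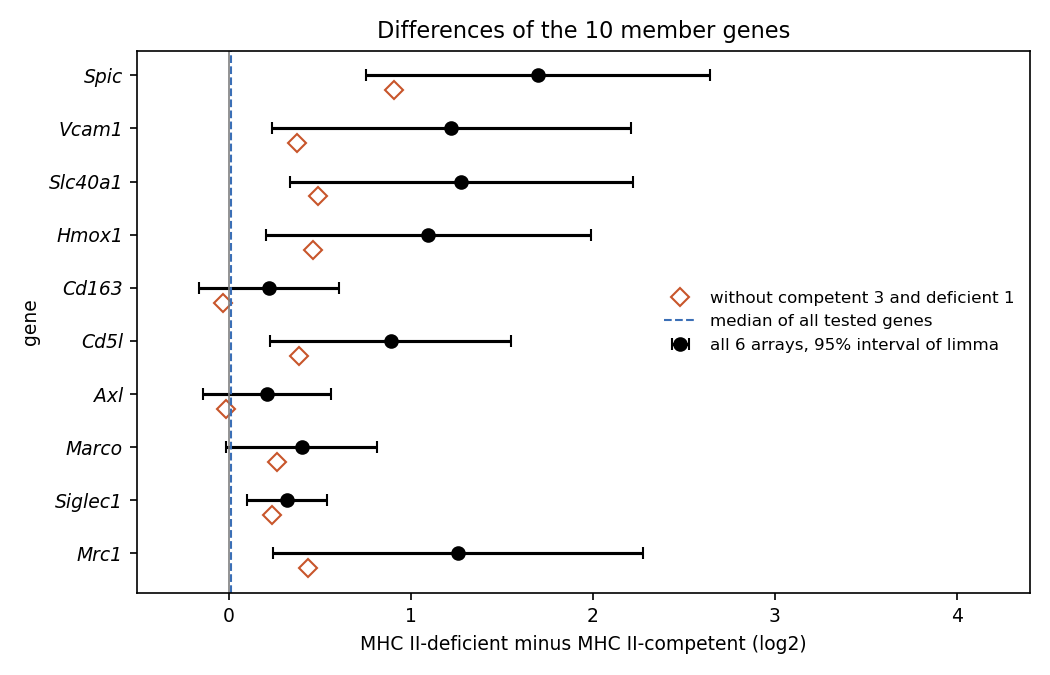
Log2 difference of MHC II-deficient minus MHC II-competent (horizontal axis) for each of the 10 genes, with the 95% interval of limma over 6 arrays (black) and the value without competent 3 and deficient 1 (open diamonds). All 10 points lie above the median of all tested genes (dashed, 0.02), the intervals of Cd163, Axl and Marco span 0, and every diamond lies left of its point.

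Over the 6 arrays the members had either a wide or a narrow range. Spic, Vcam1, Slc40a1, Hmox1, Cd5l and Mrc1 had an SD over all arrays between 0.68 and 1.16 on the log2 scale, and Cd163, Axl, Marco and Siglec1 between 0.19 and 0.35. For Vcam1, Slc40a1, Hmox1 and Mrc1 the same single pair of arrays, competent 2 above deficient 3, kept the groups from being apart. Within the competent group 7 members (these 4, Spic, Cd5l and the narrow-range gene Axl) were lowest in competent 3 and highest in competent 2, and within the deficient group they were highest in deficient 1 and lowest in deficient 3.

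Likeness was measured as the root mean square difference between array profiles, each centred on its mean over the 6 arrays. The profiles nearest to Hmox1, Slc40a1 and Vcam1 were those of the complement gene C1qa, at 0.15, 0.15 and 0.16. C1qc followed for Slc40a1 and Vcam1 (0.17 each) and C1qb for Hmox1 (0.18), and the third were Sirpa for Slc40a1 (0.19), Mpeg1 for Vcam1 (0.18) and Ubd for Hmox1 (0.20). Nearest to Spic were Clec4n (0.19), Adgre1, a surface antigen gene of macrophages (0.28), and Plbd1 (0.28). Nearest to Mrc1 were Fcgr4 (0.14), P2ry13 (0.22) and Clec4n (0.26). Cd5l had other neighbours, the chemokine gene Ccl24 (0.14), Pla2g7 (0.17) and Il18 (0.17), all with deficient 1 apart from the other arrays. The likeness includes the group difference, so it is a description with no test.

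For each array the values of 17 pan-macrophage genes were averaged and set beside the members. How far this mean follows the amount of macrophage RNA was not tested. Of its genes, Tyrobp is also in the NK cell list, and Lgmn had a lower mean in the deficient group. The averaged value was 6.93, 7.31 and 6.29 in the competent and 8.03, 7.75 and 7.23 in the deficient arrays, the same order within each group as in the 7 members named above. Subtracting this mean from each array left a group difference of 0.27 for Hmox1, 0.39 for Vcam1, 0.43 for Mrc1, 0.45 for Slc40a1, 0.87 for Spic and 0.06 for Cd5l. For the 4 narrow genes the remainder was negative, at -0.60 for Cd163, -0.62 for Axl, -0.43 for Marco and -0.51 for Siglec1. Their own differences were positive, at 0.22, 0.21, 0.40 and 0.32 in that order, and smaller than that of the mean, 0.83. These remainders are differences of log2 values within an array and carry no test. They depend on the genes taken as reference. Single genes of the list differed by -0.68 (Lgmn) to 1.52 (Tyrobp), and their mean by 0.83. C1qa, the nearest profile to Hmox1, Slc40a1 and Vcam1, differed by 1.36, more than they did (1.10, 1.28 and 1.22). Their other near profiles went both ways. C1qc (1.41) differed by more than Slc40a1 and Vcam1, and Mpeg1 (1.42) by more than Vcam1. C1qb (1.07) and Ubd differed by less than Hmox1, and Sirpa (1.03) by less than Slc40a1. Whether a member rose beyond the macrophage RNA was not tested.

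**Figure D3:**
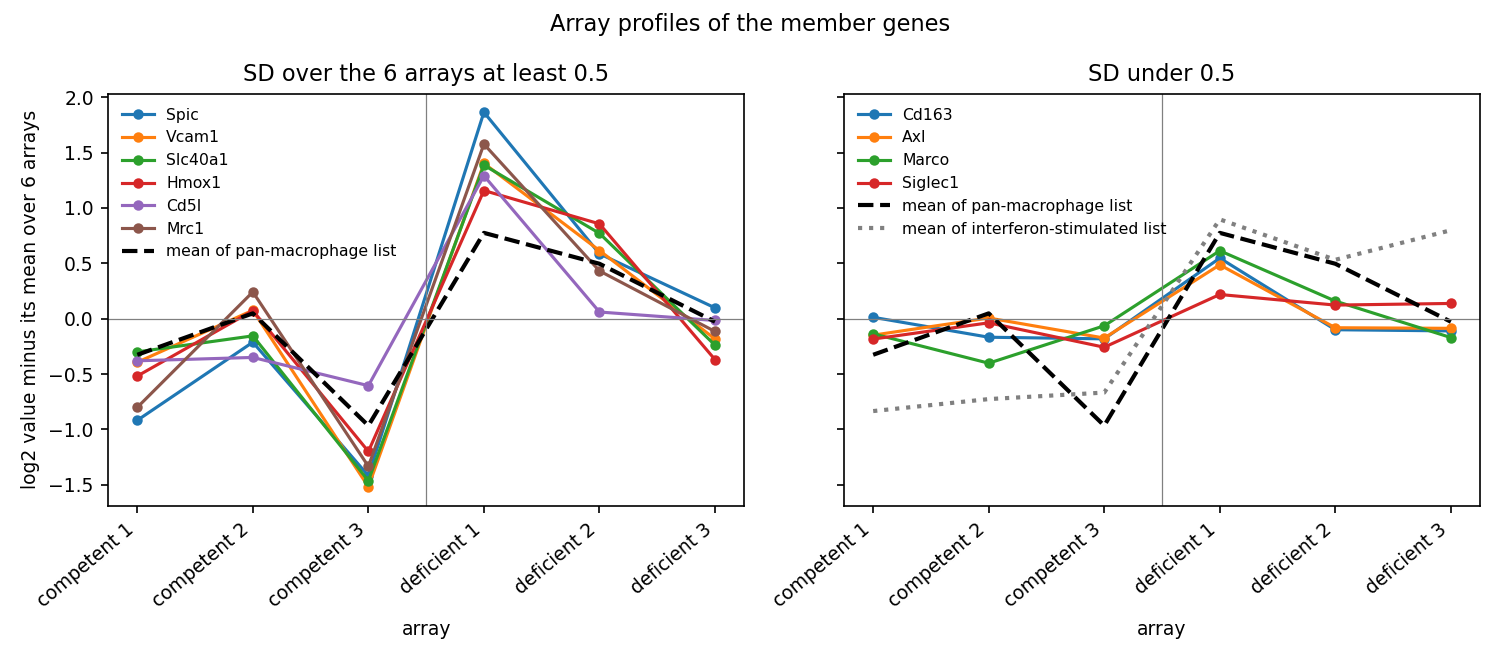
Log2 value minus its mean over the 6 arrays (vertical axis) in each array (horizontal axis, lines only join the points of a gene) for the 6 genes with a wide range (left) and the 4 with a narrow one (right), with the means of the 17 pan-macrophage genes (dashed) and of 10 interferon-stimulated genes (dotted, right). The wide genes dip at competent 3 and peak at deficient 1 as the pan-macrophage mean does, and Siglec1 stays within 0.26 of its mean.

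Among other markers of red pulp macrophages some rose. Of 10 tested, 3 rose and 0 fell, 9 lay above 0, and the median was 0.74, where 1.34% of all genes were called higher. They were Adgre1 (1.39, SE 0.29, adjusted p = 0.035), Fcna, which encodes the plasma lectin ficolin A (1.26, SE 0.26, adjusted p = 0.034), and Itgad, which encodes the αD integrin chain of red pulp macrophages (0.76, SE 0.17, adjusted p = 0.043). The nuclear receptor gene Pparg stood at -0.04 (SE 0.16) and Treml4 at 0.59 (SE 0.32), with adjusted p = 0.91 and 0.36. The count was 0 without any one of competent 1, 2 or 3 or deficient 1 or 2, 4 without deficient 3, 0 after median centring and 1 after quantile normalization. Without both competent 3 and deficient 1 it was 0, with a median of 0.25. Over the 17 pan-macrophage genes 1 rose, Adgre1 again, and 16 had an unadjusted p under 0.05 (6 of 10 in the red pulp list), against 18.9% of all tested genes. The groups were apart and higher for 7 of the 17, against 11.4% of all tested genes, and the median was 0.89. The cysteine protease gene Lgmn, named after its value was seen, is among the 16 but went the other way (-0.68, SE 0.28, adjusted p = 0.22). Spi1, also named after its value was seen, is among both the 16 and the 7. Its competent mean of 5.07 lay below the filter value of 5.205, and it was tested because its deficient mean was 5.41. The count of 1 became 0 under quantile normalization, median centring and a trended robust prior, and without any one of competent 1, 2 or 3 or deficient 1 or 2. It was 4 without deficient 3 and 4 with array weights, and without both competent 3 and deficient 1 it was 0, with 1 gene lower and a median of 0.46.

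Markers of the other macrophage sites had 0 calls. Of 3 marginal zone genes 2 were tested and 0 passed (1 at an unadjusted p under 0.05), Cd209b, the SIGN-R1 gene of marginal zone macrophages, at 5.52, 5.73 and 5.43 in the competent against 6.17, 5.99 and 5.76 in the deficient arrays, and Nr1h3, the LXRα gene (0.27, SE 0.17, adjusted p = 0.44). Of 12 genes of lymph node sinus and vessel-associated macrophages 6 were tested and 0 passed (2 at an unadjusted p under 0.05, median 0.19), among them Timd4 and Ccl24 (0.79, SE 0.35, adjusted p = 0.26). Lyve1, a hyaluronan receptor of such macrophages and of lymphatic vessels, lay below the filter, at 4.98 to 5.07 in the competent and 5.04 to 5.29 in the deficient arrays. The groups were apart and higher in the deficient arrays for 1 of the 2 marginal zone genes and 3 of the 6 sinus and vessel genes. In the red pulp list this held for 3 of 10, against 11.4% of all tested genes. With 2 and 6 genes tested, the counts of these lists and of the red pulp list were not tested against each other.

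**Figure D4:**
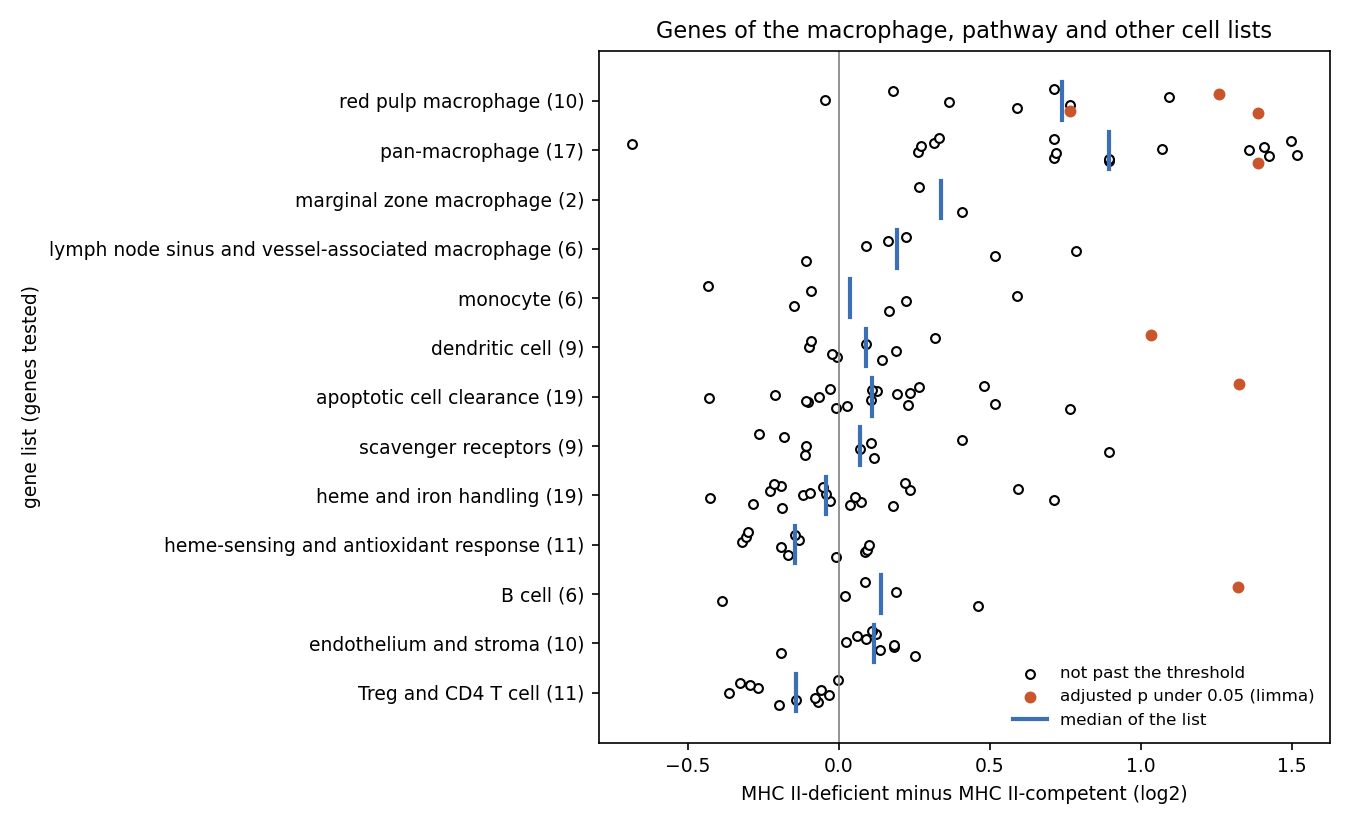
Log2 difference of MHC II-deficient minus MHC II-competent (horizontal axis) for each tested gene of 13 lists (vertical axis, number of tested genes in parentheses), filled where limma's adjusted p is under 0.05, with the median of each list as a bar. The red pulp list has 3 filled points and a median of 0.74, and the marginal zone, lymph node sinus, iron and antioxidant lists have 0 filled points.

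Markers of other cells that a spleen or lymph node sort could hold were counted beside the 1.34% of all genes called higher. Of 6 tested genes each, the monocyte list had 0 and the B cell list 1 higher (Cd22, 1.32, SE 0.14, adjusted p = 0.0025, an inhibitory lectin of B cells). In the B cell list 5 lay above 0 and 1 below. That 1 was Cd79b, lower in every deficient than in every competent array (-0.39, SE 0.13, limma adjusted p = 0.14). Groups were apart in that direction for 12.9% of all tested genes. Cd79a stood at 0.46 (SE 0.16) and Pax5 at 0.02 (SE 0.13). Cd79b, Cd79a and Pax5 were named after their values were seen. The dendritic cell list had 1 of 9 higher, Bst2, which interferons also induce (1.03, SE 0.11, adjusted p = 0.0021). The lists of neutrophils (3 tested), NK cells (6), erythroid cells and platelets (5) and CD8 T cells (4) had 0, with 0, 3, 2 and 4 genes at an unadjusted p under 0.05. Their medians were 0.07, 0.37, 0.19 and 0.29. Those of the monocyte, B cell and dendritic cell lists were 0.04, 0.14 and 0.09, with 1, 3 and 2 genes at an unadjusted p under 0.05. Of all tested genes 18.9% had such a p, in either direction. The 1 in the monocyte list, Itgam, named after its value was seen, was lower (-0.43, SE 0.13), and the 3 in the B cell list include Cd79b.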

How the data were processed

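The authors deposited 1 value per row and array on the log2 scale, made with affy in R by robust multi-array averaging (RMA), per the submitters' processing notes, from 100 ng of RNA per array, per the labels' protocols. Log base 2 is the base of RMA output and is not stated. Versions and annotation are not given in the sources used here. Detection calls were not used here, so a low row cannot be called absent.

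Of 28101 rows, 21640 have 1 gene symbol, 1321 several and 5140 none. Symbols were updated by Entrez identifier for 21553 rows (GRCm38.p6 names). Per gene the row with the highest mean was kept. Genes with a mean under 5.205, the 25th percentile, were left out (4900 genes). The difference of MHC II-deficient minus MHC II-competent was fitted in R 4.3.3 by limma 3.58.1 (lmFit, eBayes, two-sided, 4 residual degrees of freedom), with Benjamini-Hochberg adjustment over 15037 genes. SEs and 95% intervals are limma's. The number of arrays, 3 per group, limits the precision.

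The members, the 18 gene lists and the tests were chosen with earlier results of these data known. Named are the 10 members, list genes past the threshold (up to 6 per list by smallest p, or the 2 with the smallest p), a fixed set of markers, and the 3 nearest profiles of each member with an SD of at least 0.5. List genes named outside this rule were chosen after their values were seen.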

Additional observations from a re-analysis of the deposited data

How the results depend on the processing

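The alternatives were no filter, a filter at the median, quantile normalization, median centring, a trended robust prior, array weights, the mean of all rows of a gene, the replicate number as a block, each array left out, and, chosen after seeing the data, competent 3 and deficient 1 left out together. All 10 members kept a positive difference where they were tested, except Cd163 (-0.028) and Axl (-0.013) without those 2 arrays. There the members' median was 0.38 and 314 of all genes were called. Array weights gave 1 member higher (Spic, adjusted p = 0.049). With 1 array left out, 0 to 3 members were higher, their median ran from 0.63 (without deficient 1) to 1.34 (without deficient 3), and 156 to 707 of all genes were called, against 507. No alternative called a member lower. Quantile normalization gave 230 genes higher and 230 lower and median centring 127 and 297, against 201 and 306.

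With the replicate block 6 members were higher (adjusted p from 0.0016 for Slc40a1 to 0.048 for Mrc1), with 564 genes called. The labels do not say that a number pairs arrays. Deviations from the group means correlated at -0.02, -0.14 and 0.07 for numbers 1, 2 and 3, and not every array correlated best with its own number, so the number was not used as a pairing.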
